A study of Homo sapiens with 9 samples.

Results

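The baseline transcriptome of A549 cells carrying a control hairpin was described from 3 libraries (shNT) of the 9 in the series, over all 60676 genes of the count table. A549 is an established human lung adenocarcinoma line of epithelial origin. The cells had taken up a lentiviral construct for a short hairpin RNA without an intended target, were grown for 2 days, selected with puromycin (1 ng/mL by the labels) and harvested after another 3 days. The other 6 libraries carry hairpins against the long noncoding RNA LITATS1, and only the level of that RNA, as a check of the labels, is given for them. The 3 libraries are called biological replicates in the series design, with nothing on whether they came from separate transductions, so the spread between them may be technical. Every library carries the vector and the selection, and A549 cells without a hairpin were not analysed here, so what the vector, the puromycin and the cell line each contribute to a level cannot be told apart.

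Each shNT library held 24621699 to 24671296 fragments, of which 19907000 to 19989652 were assigned to a single gene. Levels are counts per 1000000 gene fragments (CPM), given as the mean ± SD of the 3 libraries (n = 3), or as the values of libraries 1, 2 and 3 in that order. CPM grows with transcript length, so a rank by CPM says only which genes hold most fragments, and levels of different genes were compared as TPM, in which fragments are divided by the length of the gene's merged exons and scaled to a sum of 1000000. A gene was called on at 1 CPM or more in each library, near-silent at a mean under 0.1 CPM, and low in between. In 1 library, 3 fragments correspond to 0.1501 to 0.1507 CPM, and a gene listed at 0 in all 3 libraries may have a level of up to 0.0501 CPM, a limit that covers counting error only. Fragments that touched exons of more than 1 gene were set aside by the counting program and made up 10.8% ± 0.154 of all fragments. A gene with at least 25% of its exons, or of its main transcript, shared with other annotated genes is called overlapped here, and its level may be understated. Not every overlapped gene that was on is marked as such below.

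LITATS1 (ENSG00000233621), the RNA targeted in the other libraries, lies on chromosome 1 of GRCh38 at 37454879 to 37474411 on the minus strand and shares no exon with another gene of GENCODE 29. It had 13.7, 14.2 and 16.5 CPM in the 3 libraries, with 274, 283 and 328 fragments. It was on in each of them, while the 6 libraries with LITATS1 hairpins held 56 to 72 fragments of it.

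The levels in a tumour line can depend on housekeeping programs, on the lineage of the cell and on the lesions of the tumour. What each adds here was not tested. Lung adenocarcinoma often keeps features of the alveolar type II cell, which makes surfactant under the control of the transcription factor NKX2-1. A549 is known for mutations in KEAP1, STK11 and SMARCA4 and for a deletion at CDKN2A; counts per gene show the level of these transcripts and not their sequence. KEAP1 normally marks the transcription factor NRF2 for destruction, and NRF2 drives genes of glutathione synthesis, detoxification and NADPH supply through antioxidant response elements in their promoters.

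Of 60676 genes, 13041 (21.5%) were on, 6261 were low and 41374 were near-silent, 33007 of them without a fragment in any library. Among 19915 protein-coding genes 11874 (59.6%) were on and 5690 (28.6%) near-silent. The median over all protein-coding genes was 6.31 CPM. Of 14853 long noncoding genes 717 (4.83%) were on, and of 15180 pseudogenes 375 (2.47%). Nuclear protein-coding genes took 86.8% ± 0.221 of the gene fragments, mitochondrially encoded genes 12.2% ± 0.224, long noncoding genes 0.659% ± 0.00153 and pseudogenes 0.360% ± 0.00313. The highest 10 genes held 12.5% ± 0.152 of the gene fragments, the highest 25 held 18.5% ± 0.119, the highest 100 held 28.8% ± 0.0648 and the highest 1000 held 56.8% ± 0.0633.

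The genes with most fragments were those of the mitochondrial genome, which encodes ribosomal RNAs, transfer RNAs and subunits of the respiratory chain. MT-RNR2, the large mitochondrial ribosomal RNA, had 37614, 34926 and 35419 CPM, and library 1 was above the other libraries. MT-CO1, a subunit of cytochrome c oxidase, had 22549.9, 22305 and 21545 CPM, and MT-CO2 and MT-CO3 of the same enzyme had 10383 ± 294 and 9764 ± 217. MT-ND4, MT-ND1, MT-ND2 and MT-ND5, subunits of complex I, had 10571 ± 132, 6563 ± 213, 6379 ± 97.2 and 4274 ± 219.7 CPM. MT-CYB had 5138 ± 84.1, MT-ATP6 4755 ± 168 and MT-RNR1, the small ribosomal RNA, 3348 ± 101 CPM. Of the highest 25 genes 11 were mitochondrial by CPM and 15 by TPM. On the TPM scale the mitochondrial genes were led by MT-RNR2 (70215 TPM), MT-CO2 (46172), MT-CO1 (43662) and MT-CO3 (37879). With the length of the principal transcript in place of merged exons, MT-RNR2, MT-CO2, MT-CO1 and MT-CO3 stood at 43009, 28280, 26743 and 23199 TPM, in the same order, and FTL at 19174. MT-ND3 stood at 10551 TPM, MT-ND4L at 5474, MT-ND6 at 3876 and MT-TP, for a transfer RNA, at 3751. The sources used here do not say how RNA was selected for the libraries, so shares of ribosomal and transfer RNAs describe the libraries.

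**Figure D1:**
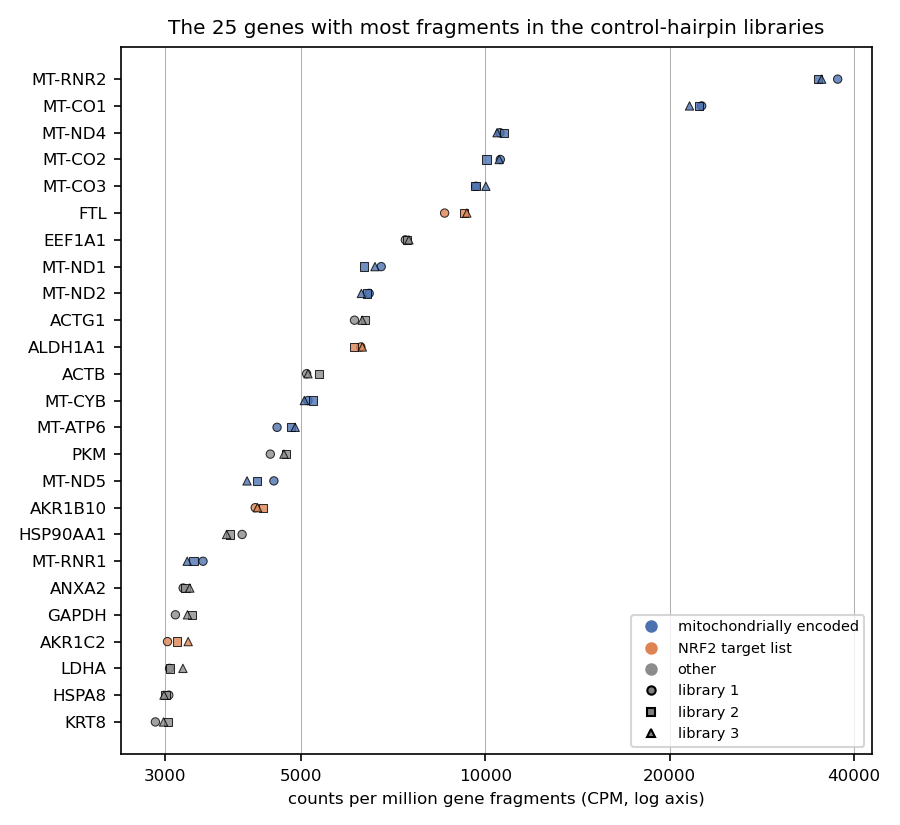
Levels of the 25 genes with most fragments, in CPM on a log axis, 1 symbol shape per control-hairpin library and colours for mitochondrially encoded genes, members of the NRF2 target list and other genes. MT-RNR2 lies between 34926 and 37614 CPM in the 3 libraries, and FTL is the nuclear gene with most fragments.

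The nuclear gene with most fragments, and the highest on the TPM scale (31309.5 ± 1302 TPM), was FTL, the light chain of the iron store ferritin. It had 8575, 9218 and 9322 CPM, with library 1 below the other libraries. EEF1A1, which carries aminoacyl-tRNA to the ribosome, had 7397, 7439 and 7498 CPM, within a narrow range. ACTG1 and ACTB, the cytoplasmic actins, had 6250.2 ± 126 and 5191 ± 131 CPM. The glycolytic enzyme genes PKM, GAPDH and LDHA had 4622 ± 149, 3229 ± 102 and 3102 ± 88.8 CPM. GAPDH is overlapped (31.1% of its main transcript). The chaperone genes HSP90AA1 and HSPA8 had 3867 ± 119.9 and 3008 ± 27.3, ANXA2, a membrane-binding annexin, 3243 ± 41.5, and KRT8, a simple-epithelium keratin, 2966 ± 71.2 CPM. The other nuclear genes among the highest 25 by fragments, ALDH1A1, AKR1B10 and AKR1C2, are described with the NRF2 targets. By TPM the 25 highest genes also held TMSB10, an actin-binding thymosin (5160.3 TPM), KRT81, a hair-type keratin (4450.2), and RPL41P1, a pseudogene copy of RPL41 (5363), whose reads cannot be told apart with confidence from those of RPL41.

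Lists of general programs were nearly all on, against 59.6% of all protein-coding genes. For cytosolic ribosomal proteins 76 of 78 genes were on, with 4.51% of gene fragments. Per length of merged exons RPS2 (2207 TPM), RPL19 (2138) and RPL13A (1753) were among the highest. By principal transcript RPS16 (4259 TPM) and RPS19 (3609) stood above RPS2 (3312). The exceptions RPS10 (0.768 CPM) and RPL17 (1.07) are overlapped, and so is RPS2, which was on (25.6% of its exons). Of translation factors 14 of 15 were on, with EEF2 at 1493 CPM, PABPC1, which binds poly(A) tails, at 1139 and EIF5A at 583. The remaining one, EEF1G, was listed at 0 with 99.9% of its exons overlapped. All 20 genes of glycolysis and lactate transport were on, with ENO1 at 2938 CPM, and they held 1.85% of gene fragments. ALDOA (1.34 CPM) and LDHB (2.004) stood near the threshold and share 96.2% and 76.5% of their main transcripts with other genes. All 29 cytoskeletal genes were on, with S100A6 at 2097 TPM.

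Genes of the NRF2 program were among the most abundant nuclear transcripts. Of the list of 42 NRF2 targets 41 (97.6%) were on, against 59.6% of all protein-coding genes. The list's median was 371 CPM against 6.31 over all protein-coding genes and 30.4 over those that were on. Together the targets held 4.34% of gene fragments. The exception, the carbonyl reductase gene CBR3 (0.551 CPM), is overlapped. Next to FTL the list's highest by TPM were AKR1B10 (7426 TPM), ALDH1A1 (6634) and NQO1 (2033). This order depends on the length used: by principal transcript ALDH1A1 (5494 TPM) stood above AKR1B10 (4989), and NQO1 (1391) below FTH1, AKR1C3, TXN and AKR1C2 (2913, 1708, 1600.2 and 1558). ALDH1A1, a retinaldehyde dehydrogenase, had 6257, 6092 and 6293 CPM. AKR1B10, an aldo-keto reductase that clears reactive aldehydes, had 4206, 4326 and 4242 CPM. NQO1, which reduces quinones by transferring a pair of electrons, had 2131, 2156 and 2237 CPM. The 3 libraries stood close together for each of them.

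Of the detoxifying enzymes, AKR1C2 had 3142 ± 122 CPM, AKR1C3 1657 ± 64.2 and AKR1C1 865 ± 68.3; these genes are near-identical copies in part, so the split between them is uncertain. ALDH3A1 had 1386 ± 49.2 and UGDH, which makes UDP-glucuronate, 592 ± 24.2 CPM. In the NADPH-forming pentose phosphate pathway, PGD had 1336 ± 18.2, TKT 1596 ± 38.7 and TALDO1 293 ± 13.7 CPM, and ME1, malic enzyme, had 190.0 ± 6.92. For glutathione and thioredoxin, TXNRD1 had 1539 ± 37.2, TXN 747 ± 25.1, GSR 398 ± 2.36, SLC7A11, the cystine importer, 364 ± 28.6, GCLM 361 ± 9.55, GCLC 195 ± 4.4 and GPX2 256 ± 10.7 CPM. The drug and conjugate exporters ABCC3, ABCC2 and ABCC1 had 575 ± 6.2, 500.4 ± 6.2 and 315 ± 7.17 CPM, and HMOX1, heme oxygenase, 379 ± 16.7. The nuclear receptor gene NR0B1 had 44.5 ± 3.5 CPM. GSTM3 and CYP4F3 had 4.29 and 9.9 CPM.

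All 9 regulators were on as well, against 59.6% of all protein-coding genes. NFE2L2, which encodes NRF2, had 122, 115 and 115 CPM, KEAP1 83.5, 90.8 and 88.3 and CUL3, the ubiquitin ligase scaffold on which KEAP1 acts, 119, 117 and 113. The small MAF partners MAFG and MAFK had 97.5 ± 3.38 and 74.6 ± 2.95 CPM, and BACH1, a repressor at the same sites, 25.8 ± 0.605. SQSTM1, the autophagy receptor that binds KEAP1, had 1193 ± 30.6 CPM.

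Sequences that match the element bound by NRF2 are shown for the 3 target genes with most fragments whose promoter window holds one. The antioxidant response element was searched as TGACNNNGC, or GCNNNGTCA for the other strand, in the 250 bases before each gene start of RefSeq (GRCh38.p14). Of 42 targets 27 had such a window in the table used, and 8 of the 27 (29.6%) held a match, against 3609 of all 27305 genes (13.2%) and 1537 of 9690 protein-coding genes that were on (15.9%). PGD (phosphogluconate dehydrogenase) supplies NADPH, TXNRD1 (thioredoxin reductase) uses it, and GCLM is the regulatory subunit of the first enzyme of glutathione synthesis. TXNRD1 has 2 windows with a match, of which the one first in coordinate order is printed. Capitals mark the match, whose first base lies 99 bases before the start in TXNRD1 (chr12:104215529-104215778, plus strand), 201 in PGD (chr1:10398814-10399063, plus strand) and 34 in GCLM (chr1:93909431-93909680, minus strand).
TXNRD1: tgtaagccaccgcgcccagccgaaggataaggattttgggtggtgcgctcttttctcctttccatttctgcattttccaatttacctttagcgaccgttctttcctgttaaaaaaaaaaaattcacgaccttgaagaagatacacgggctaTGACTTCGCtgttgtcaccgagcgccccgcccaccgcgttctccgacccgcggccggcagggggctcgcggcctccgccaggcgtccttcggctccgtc
PGD: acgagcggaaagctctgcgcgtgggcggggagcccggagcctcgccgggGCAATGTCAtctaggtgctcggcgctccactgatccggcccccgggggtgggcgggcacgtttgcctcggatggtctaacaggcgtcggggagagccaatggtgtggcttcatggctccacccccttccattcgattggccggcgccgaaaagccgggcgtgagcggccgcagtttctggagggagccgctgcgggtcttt
GCLM: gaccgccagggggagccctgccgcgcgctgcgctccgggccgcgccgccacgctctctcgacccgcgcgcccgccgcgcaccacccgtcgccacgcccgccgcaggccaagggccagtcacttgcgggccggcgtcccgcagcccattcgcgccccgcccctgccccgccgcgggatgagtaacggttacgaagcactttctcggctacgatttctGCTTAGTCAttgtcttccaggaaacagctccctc
The TXNRD1 match reads TGACTTCGC on the gene's strand, and those of PGD and GCLM read GCAATGTCA and GCTTAGTCA, the reverse orientation. EPHX1, GPX2, ME1, CBR1 and CYP4F11 held the other matches. The remaining targets had either no window or a window without a match. The list holds genes already known as targets, so a higher share does not describe these cells. A match is a run of letters and does not show binding, and a window without one may have a site elsewhere.

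Most markers of the alveolar type II cell were low or near-silent. Of 17 markers 6 were on (against 59.6% of protein-coding genes), 3 were low and 8 near-silent, and none of the 11 that were not on is overlapped. NKX2-1, the lung lineage factor, was listed at 0 in all 3 libraries, as were SFTPA1, a surfactant protein, PGC and WIF1. The surfactant genes SFTPC, SFTPB, SFTPD and SFTPA2 had 3, 1 and 2, 2, 0 and 3, 4, 0 and 1 and 2, 0 and 0 fragments; SFTPA1 and SFTPA2 are near-identical copies. SLC34A2, the phosphate transporter of type II cells, had 1, 0 and 0 fragments, the protease gene NAPSA 0.518 ± 0.323 CPM and LAMP3 of lamellar bodies 0.368 ± 0.227. Markers that were on were ABCA3, the lipid pump of lamellar bodies, at 85.7, 92.9 and 83.8 CPM, LPCAT1, which makes surfactant lipid, at 212, 212 and 202, and SDC1, a syndecan of many epithelia, at 288, 301 and 297. ETV5, a factor that type II cells need, had 56.9 ± 0.552 CPM, CTSH, a cathepsin that processes surfactant proteins, 13.04 ± 0.612 and HHIP, a hedgehog inhibitor, 7.43 ± 0.712. SDC1, LPCAT1, CTSH and ETV5 are also made in other epithelia. Of the markers more particular to type II cells, the surfactant proteins, NKX2-1 and SLC34A2 were at or near 0 and ABCA3 was on.

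Markers of other lung cell types were on in part. Of 12 alveolar type I markers 8 (66.7%) were on, near the 59.6% of all protein-coding genes. Among them were CAV1 (519 ± 10.2 CPM) and CAV2 (227 ± 8.78) of caveolae, GPRC5A (237 ± 7.06), EMP2 (32.6 ± 2.12), AGER and RTKN2. PDPN, AQP5, HOPX and CLIC5, further markers of that cell, were listed at 0. Of 13 club cell and secretory genes 3 (23.1%) were on, which were ALDH3A1, KRT7 (1333 ± 43.9 CPM) and the protease inhibitor gene SLPI (13.1 ± 0.758). SCGB1A1, the club cell secretoglobin, and SCGB3A1 and SCGB3A2 were at 0. Of 18 goblet cell and mucin genes 10 (55.6%) were on, also near that share. AGR2, a protein disulfide isomerase needed for mucins, had 261 ± 9.17 CPM, the gel-forming mucin genes MUC5B and MUC5AC had 34.1 ± 1.51 and 17.95 ± 1.01, MUC13 14.4 ± 1.08, and SPDEF, the goblet cell factor, 9.84 ± 0.0763. TFF1, a trefoil peptide, had 2.64 ± 0.716 CPM (14.6 TPM), and MUC2, MUC6 and MUC16 were near-silent.

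Ciliated cell genes were on in 6 of 16 cases (37.5%, against 59.6% of all protein-coding genes), with CCDC78 at 12.3 CPM. MCIDAS, RFX2 and RFX3, regulators of ciliogenesis, had 2.19, 7.41 and 5.73 CPM, whereas FOXJ1, a factor needed for motile cilia, was low (0.251), and DNAH9, an axonemal dynein, was at 0. Of 14 basal and squamous genes 5 (35.7%) were on, among them SOX2 at 7.53 CPM, S100A2 at 2.91, KRT16 at 2.22 and KRT17 at 1.42. TP63, the factor of basal cells, had 3.002, 2.65 and 3.52 CPM. KRT5, which marks basal cells, had 1, 1 and 1 fragments. Of 16 neuroendocrine and tuft genes 5 (31.25%) were on, among them UCHL1, a ubiquitin hydrolase of neurons, at 553, 595 and 608 CPM. DLL3, an inhibitory Notch ligand, had 18.7 ± 0.518 CPM and CHGB, a granin, 12.5 ± 0.913, but NEUROD1, INSM1 and POU2F3, factors that define these fates, were at 0.

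Transcription factors of endoderm were mostly on, 24 of 32 in all (75%), against 59.6% of all protein-coding genes. Their median was 5.04 CPM against 6.31 over all protein-coding genes. By TPM the highest were CEBPB (212), ETV4 (58.4), FOXA2 (45.6) and KLF5 (41.2). HNF4A, a regulator of liver and gut genes, had 23.1, 22.01 and 24.1 CPM, and FOXA2, a pioneer factor of endoderm, 37.4, 39.6 and 39.99. HNF4G had 3.83 CPM and NR5A2, a regulator of bile acid and pancreatic genes, 39.7. FOXA1 stood at 10.2, FOXA3 at 2.003, GATA4 at 5.39, GATA6 at 2.2, CEBPA at 3.54, ONECUT2 at 5.79 and ONECUT1 at 1.64 CPM. CEBPA is overlapped, so its level may be understated. Among epithelial factors ELF3 had 50.4, EHF 10.99, KLF4 13.2 and GRHL1 1.34 CPM, while GRHL2 had 0, 1 and 0 fragments. SOX9 stood at 24.2, SOX17 at 1.27 and NR1H4, the bile acid receptor, at 1.32 CPM. The gut and pancreas factors CDX2 (0.401 CPM) and PDX1 (0.10) and the liver factors PROX1 (0.167) and ONECUT3 (0.167) were low, and CDX1 was at 0. ETV4, a target of RAS signalling, had 69.3 ± 4.01 CPM.

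Some liver products were on and others were not. Of 35 genes in the list, which holds mostly secreted liver proteins but also CPS1, TM4SF4 and CPLX2, 18 (51.4%) were on and 10 near-silent, against 59.6% on over all protein-coding genes. FGA, FGB and FGG, the chains of fibrinogen, had 43.3 ± 0.885, 34.8 ± 2.2 and 20.1 ± 0.092 CPM. Complement genes C5 and C3 had 86.8 ± 1.42 and 85.9 ± 3.69, and CPS1, which opens the urea cycle, 70.1 ± 2.57. ALB, albumin, had 5, 3 and 2 fragments, AFP 0.785 ± 0.276 CPM and SERPINA1 0.718 ± 0.204, while APOB, APOA2, APOC3 and HP were at 0. SERPINA3 was also at 0, with 31.8% of its exons overlapped. CPLX2 of this list, which encodes complexin, a regulator of synaptic vesicle fusion, had 1662, 1614 and 1683 CPM and ranked 41 by fragments. Of 16 gastrointestinal genes 5 (31.25%) were on, which were TM4SF4 (44.7 CPM), the adhesion genes CEACAM6 (27.3) and CDH17 (21.98), ANXA13 (18.1) and SLC51B (7.2).

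Epithelial and mesenchymal genes were on side by side. Besides KRT8, the keratin genes KRT81, KRT7 and KRT18 had 2822 ± 144, 1333 ± 43.9 and 1125 ± 30.1 CPM, KRT19 79.2 ± 2.54, and KRT20, a gut keratin, 0.284 ± 0.161. VIM, vimentin, had 571, 586 and 587 CPM. Of 33 epithelial junction genes 24 (72.7%) were on, against 59.6% of all protein-coding genes. CDH1, E-cadherin, had 35.7, 33.97 and 35.6 CPM and CDH2, N-cadherin, 57.7, 56.2 and 57.6; per length these are 17.3 and 35.1 TPM. By TPM the leading epithelial genes were CD24 (747), JUP (190.1), CTNNA1 (127) and CLDN1 (127). EPCAM had 4.12 ± 0.0693 CPM, CLDN4 3.81 ± 0.0505 and CLDN7 0.117 ± 0.104. The splicing regulators of epithelia ESRP1 and ESRP2 had 3, 3 and 1 and 5, 5 and 4 fragments, and RAB25, an epithelial trafficking gene, was at 0, with no exon overlap. OVOL1, also at 0, is overlapped.

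Of 25 mesenchymal genes 21 (84%) were on, against 59.6% of all protein-coding genes. S100A4 had 464 ± 20.6 CPM, TGFBI 1129.7 ± 39.8, CD44 677 ± 6.66 and FN1, fibronectin, 461 ± 18.96. The repressors of E-cadherin ZEB1, ZEB2, SNAI1, SNAI2, TWIST1 and TWIST2 had 37.6, 9.85, 11.6, 2.84, 2.86 and 11.5 CPM. POSTN, periostin, was at 0. Of 20 collagen genes 15 (75%) were on, with COL7A1 at 261 ± 13.1 CPM, COL5A2 at 249.6 ± 8.37, COL18A1 at 164 ± 7.46 and COL4A2 at 154 ± 5.97. COL1A1 had 11.8, 12.4 and 13.1 CPM, while COL1A2, its partner chain in type I collagen, was at 0 with no exon overlap.

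Markers of cells that a cell line should not hold were near 0. Their summed level was 2.9 to 3.67 CPM over 9 fibroblast genes, 7.54 to 8.004 over 15 immune genes, 4.27 to 4.8 over 10 endothelial genes and 0 to 0.0502 over 8 erythroid genes. The genes of these lists that were on were THY1 (2.24 CPM), ITGAM (5.29), CD14 (1.37) and ESAM (3.64). DCN, FAP, PTPRC, CD3D, CD3E, MS4A1, CDH5, TIE1 and ERG were at 0. DPT, CD68, LYZ, HBG1 and HBG2, also in these lists and at or near 0, are overlapped, so their levels may be understated.

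**Figure D2:**
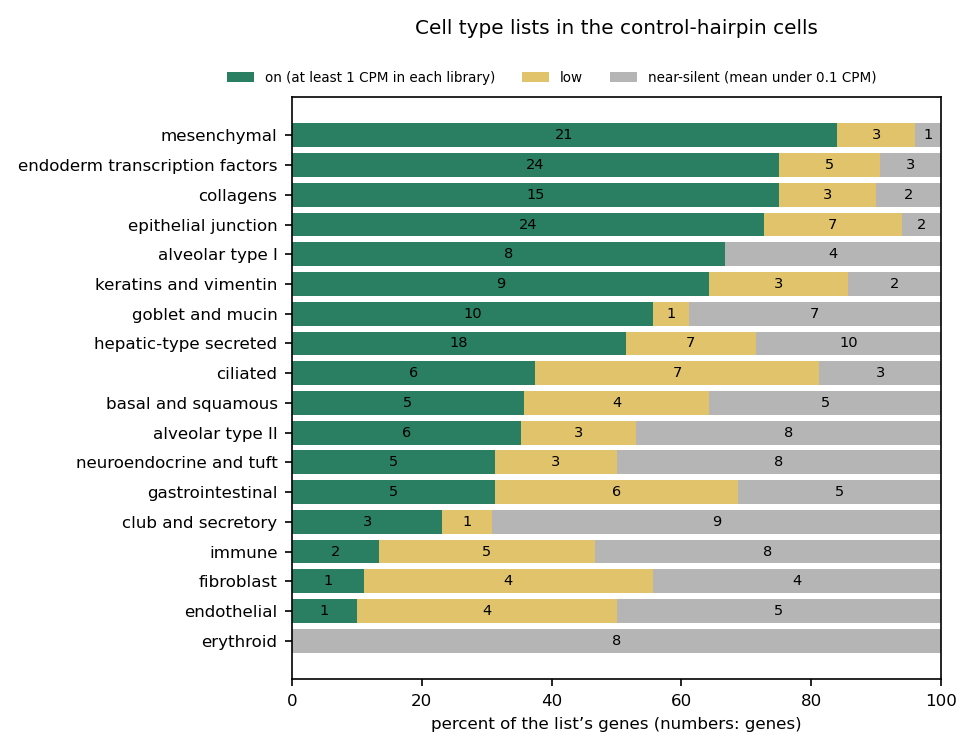
Share of each cell type list that was on, low or near-silent in the control-hairpin cells; the number in each bar segment counts genes. Mesenchymal genes were on in 21 of 25 cases and endoderm factors in 24 of 32, against 6 of 17 alveolar type II markers and none of 8 erythroid genes.

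Of 30 receptor tyrosine kinases 18 (60%) were on, close to the 59.6% of all protein-coding genes, 8 low and 4 near-silent. By TPM AXL (167), EPHA2 (139), MET (138) and EGFR (58.5) led. MET, the receptor of hepatocyte growth factor, had 334, 312 and 314 CPM, AXL 285, 295 and 269.5, EGFR 258, 239 and 225 and EPHA2 187, 198 and 185. Library 1 was the highest for MET and EGFR. IGF1R had 224 CPM, INSR 16.3, FGFR1 132, FGFR4 63.9, FGFR3 4.59, DDR1, a collagen receptor, 90.03 and EPHB4 78.8. ERBB2 had 55.6 and ERBB3 5.41 CPM, whereas ERBB4 was at 0. TYRO3, a relative of AXL, had 25.7, MERTK 3.96, MST1R 22.6, NTRK3 20.8 and RET 1.77 CPM. ROS1 (0.618 CPM), NTRK2 (0.584), FGFR2 (0.551), DDR2 (0.401), PDGFRA (0.267), PDGFRB (0.251) and LTK (0.217) were low. ALK had 1, 2 and 1 and KIT 1, 0 and 0 fragments, and FLT3 was at 0. No gene of the list that was low or near-silent is overlapped.

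Ligands for these receptors were on too, with 8 of 9 EGF-family genes on (88.9%, against 59.6% of all protein-coding genes). By TPM AREG (103), EREG (71.4), NRG1 (64.99) and TGFA (24.7) led, and NRG1, a ligand of ERBB3, had 242 ± 8.14 CPM.

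All 21 RAS pathway genes were on, against 59.6% of all protein-coding genes. The median of the 21 was 60.02 CPM. NRAS had 105, 99.8 and 100.4 CPM and HRAS 49.8, 55.8 and 55.2. Per length, HRAS stood at 87.9 TPM and NRAS at 69.6, and the related small GTPase genes RRAS at 157, RALB at 97.1, RALA at 41.9, RRAS2 at 41.5, RIT1 at 20.7 and MRAS at 8.52. The kinase genes ARAF and BRAF had 89.9 and 18.1 CPM, MAP2K1 and MAP2K2 70.2 and 175, and MAPK3 45.6. Upstream, the exchange factor genes SOS1 and SOS2 had 69.6 and 47.3 and the phosphatase gene PTPN11 297 CPM. The GTPase-activating genes NF1 and RASA1 had 129 and 45.2 CPM. Of 18 transcripts known as output of the pathway 17 (94.4%) were on. DUSP4, a feedback phosphatase, had 432 ± 6.84 CPM and CCND1 279.6 ± 4.54, while DUSP6 had 10.1 ± 0.407, EGR1 1.59 ± 0.399 and SPRY1 3.54 ± 0.196. DUSP6 is overlapped (40.5% of its exons).

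Of 28 MYC family and nuclear oncogenes 22 (78.6%) were on, against 59.6% of all protein-coding genes. MYC had 119, 118 and 122 CPM, and its relatives MYCL and MYCN had 1.12 ± 0.274 CPM and 0, 0 and 2 fragments. The partner MAX stood at 26.8 CPM and the antagonists MXI1 and MXD1 at 15.9 and 5.9. Among cyclins and their kinases, CCND3 had 338, 359 and 356 CPM and CCND1 284, 279.9 and 275, whereas CCND2 had 1, 0 and 1 fragments. CCNE1 had 51.6 CPM, CCNE2 6.98, CDK4 80.8 and CDK6 29.6; CCNE2 and CDK4 are overlapped. Of AP-1 genes FOSL2 had 284 CPM, FOSL1 62.4, JUN 74.5, JUNB 47.5 and JUND 46.6, while FOS (2.89) and FOSB (0.434) were scarce. MYBL2 had 147 CPM and MYB 0.451, EZH2 43.4 and BMI1, both chromatin repressors, 39.5. The ubiquitin ligase gene MDM2 and its relative MDM4 had 42.1 and 21.2 CPM. TERT, the telomerase enzyme, had 4.7, 5.75 and 5.68 CPM, and its RNA TERC was listed at 0 with 80.96% of its exon overlapped.

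Of 32 tumour suppressor genes 29 (90.6%) were on, against 59.6% of all protein-coding genes. CDKN2A, CDKN2B and CDH13 were listed at 0 in all 3 libraries. RB1 had 78.6, 75 and 76.2 CPM and STK11, a kinase of energy sensing, 43.8, 53.99 and 44.1. KEAP1 and CDKN1A, the p21 inhibitor of cyclin-dependent kinases, had 87.5 ± 3.67 and 126 ± 2.32 CPM. SMARCA4, a catalytic subunit of the SWI/SNF remodelling complex, had 11.1, 11.1 and 10.8 CPM, and its paralog SMARCA2 58.3, 50.8 and 53.5; per length these are 2.12 and 8.87 TPM. Other SWI/SNF genes, ARID1A, ARID1B and ARID2, had 77.3, 48.96 and 51.9 CPM. FAT1 had 222, BRCA1 106, BRCA2 22.7, ATM 37.2, NF2 42.9, LATS1 31.2, LATS2 24.4, APC 48.6, SMAD4 34.1 and CYLD 23.2 CPM. KMT2D and SETD2, which methylate histone H3, had 60.9 and 60.2, RBM10, a splicing factor, 71.5, CDKN1B 24.4, CDKN2C 19.8 and RASSF1 11.5 CPM. NF1 was given with the RAS pathway. FHIT, at a fragile site, had 1.6, 1.25 and 2.31 CPM, with library 3 the highest.

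**Figure D3:**
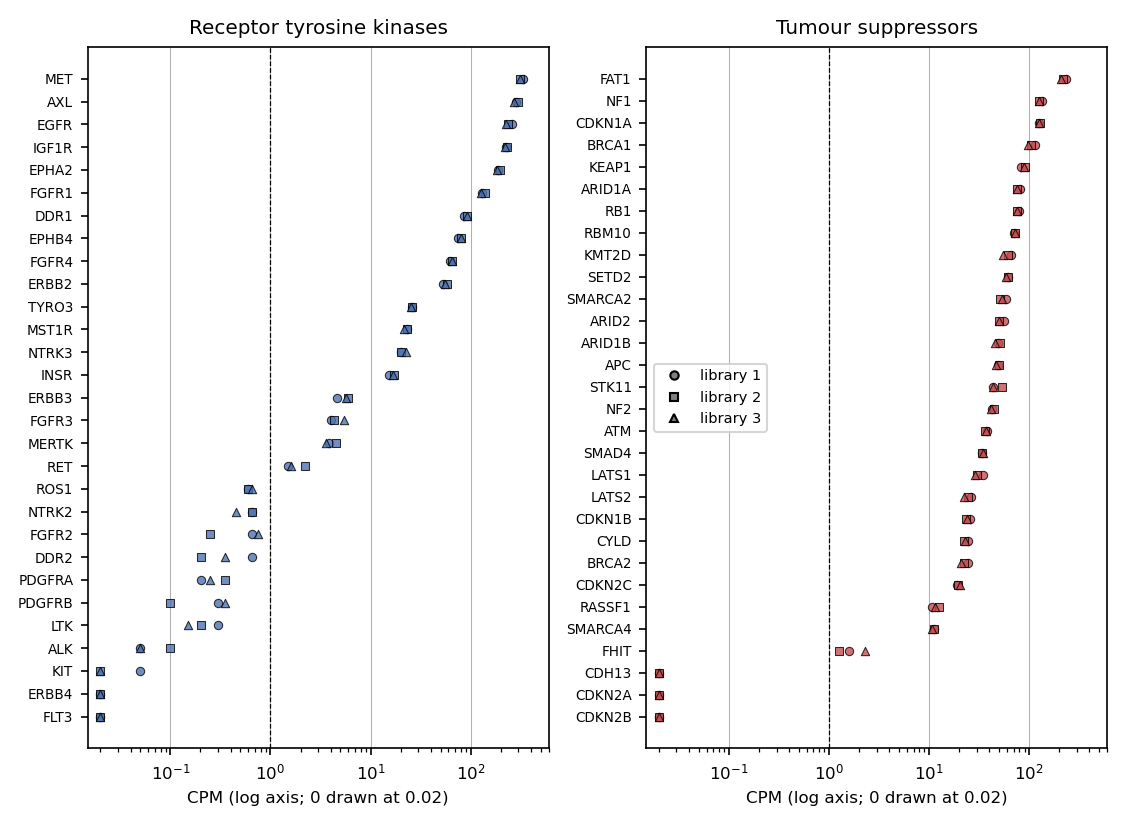
Levels of 29 receptor tyrosine kinases and 30 tumour suppressors in CPM on log axes, 1 symbol shape per library, with values of 0 drawn at 0.02 and a dashed line at 1 CPM. MET lies between 312 and 334 CPM, and CDKN2A, CDKN2B and CDH13 are at 0 in every library while the other 27 suppressors drawn lie above the line.

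The silence at CDKN2A was seen against its neighbours on the short arm of chromosome 9. CDKN2A encodes the cell cycle inhibitor p16 and, in another frame, ARF, and CDKN2B encodes p15. MTAP, the gene next to CDKN2A that encodes methylthioadenosine phosphorylase, had 2, 2 and 2 fragments (0.10 CPM). CDKN2B-AS1, the long noncoding RNA (ANRIL) across CDKN2B, had 81, 90 and 86 fragments (4.29 ± 0.227 CPM), and DMRTA1 on its far side 3.16 ± 0.174. Of their exons CDKN2A, MTAP and CDKN2B-AS1 share 7.88%, 9.59% and 13.8% with other genes, and CDKN2B none. On the MTAP side KLHL9, which lies within the cluster of interferon genes, had 68.7, 66.9 and 66.9 CPM, and beyond the cluster FOCAD had 75.2 ± 3.74, MLLT3 58.8 ± 1.83 and HACD4 7.48 ± 0.413. On the other side TUSC1 had 8.97 ± 0.66 CPM, CAAP1 36.97 ± 1.62, PLAA 76.3 ± 1.48 and IFT74 32.6 ± 0.961. ELAVL2 (0.134 CPM) and TEK (0.10), genes of neurons and endothelium, were low. In the interferon cluster IFNE had 1.2, 0.951 and 1.31, IFNB1 1.45, 0.951 and 0.553 and IFNA1 0.25, 0.45 and 0.402 CPM. The 0 counts of CDKN2A and CDKN2B, with MTAP at 0.10 CPM beside them, thus lay between KLHL9 and DMRTA1, which were on. CDKN2B-AS1, across CDKN2B, was also on, while IFNE and IFNA1, between KLHL9 and MTAP, were low. Most alpha interferon genes of the cluster were at 0 as well, and such genes are silent in resting cells of most types.

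**Figure D4:**
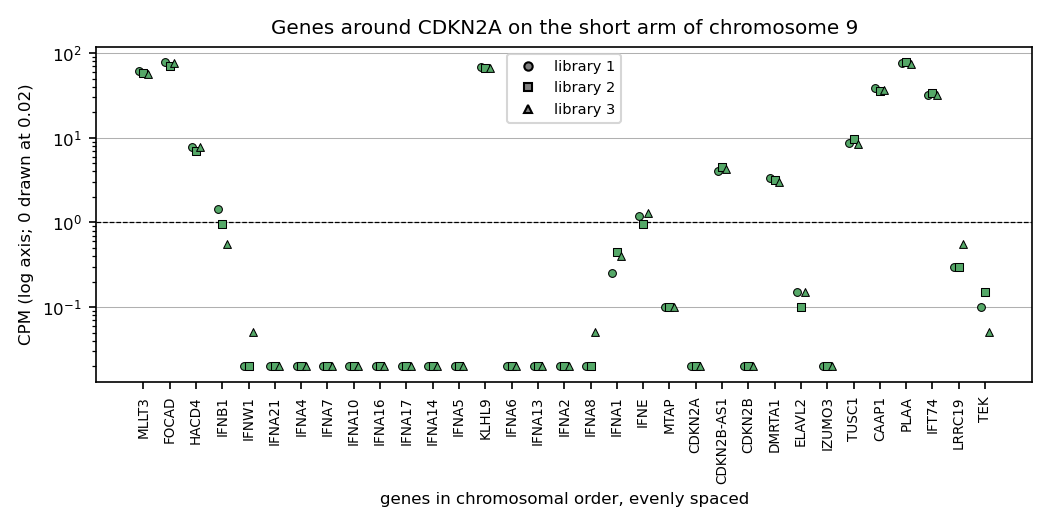
CPM on a log axis of the named protein-coding genes and CDKN2B-AS1 from MLLT3 to TEK in chromosomal order, 1 symbol shape per library, with values of 0 drawn at 0.02 and a dashed line at 1 CPM. CDKN2A and CDKN2B are at 0 and MTAP is at 0.10 CPM, between KLHL9 on one side and DMRTA1, TUSC1 and CAAP1 on the other.

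Most genes of cell survival, growth and division were on, at shares to be read beside the 59.6% of all protein-coding genes. Of the BCL2 family 13 of 16 (81.25%) were on. The survival genes MCL1, BCL2L1 and BCL2 had 232 ± 2.93, 190.2 ± 5.51 and 3.66 ± 0.536 CPM, and the death effector BAX 104 ± 5.17. Of PI3K and mTOR genes 15 of 16 were on; the exception PIK3R2 (0, 0 and 1 fragments) shares 87.2% of its exons. Of G1/S and replication genes 30 of 30 were on, with PCNA, the sliding clamp, at 356 ± 8.39 CPM and MCM7, a helicase subunit, at 295 ± 11.97. Of G2/M and mitosis genes 28 of 30 were on, with TOP2A at 562 ± 21.2, CCNB1 at 179 ± 1.64 and MKI67 at 272 ± 17.97 CPM; the exceptions NUSAP1 and PRC1 are overlapped. Of 18 cancer-testis genes 2 (11.1%) were on. PRAME, an antigen of germ cells and tumours, had 134, 137 and 146 CPM and MAGEA6 7.83 ± 0.811, a near-identical copy of MAGEA3 (1.2).

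Among stress programs, all 25 genes in a list of transcripts known to rise after DNA damage were on, against 59.6% of all protein-coding genes. Damage itself was not measured. TNFRSF10B, a TRAIL receptor, had 236 ± 4.35 CPM, CDKN1A 125, 129 and 125 and GDF15, a stress cytokine, 84.1, 98.8 and 90.8. The median of this list was 21.2 CPM against 30.4 over protein-coding genes that were on. Of heat shock chaperones 20 of 21 (95.2%) were on, led per length of merged exons by HSP90AA1 (2242 TPM), HSP90AB1 (2153), HSPA8 (1887) and HSPD1 (905). By principal transcript HSPA8 (2564 TPM) stood above HSP90AA1 (2133) and HSP90AB1 (1528). The stress-inducible HSPA1A and HSPA1B, near-identical copies, had 109 ± 2.7 and 42.1 ± 1.28 CPM, and HSPA6, made mainly under strong stress, 0.30, 0.951 and 0.904. Of genes of the unfolded protein response 21 of 22 were on, with HSPA5, the endoplasmic reticulum chaperone BiP, at 1041 ± 4.49 CPM, CALR at 718 ± 13.7, CANX at 1440.2 ± 55.8 and HSP90B1 at 974 ± 20.2. ERN2, the sensor isoform of mucous epithelia, had 0, 3 and 0 fragments, and its relative ERN1 22.1 CPM.

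Of ATF4 response genes, which answer amino acid shortage, 22 of 23 (95.7%) were on, against 59.6% of all protein-coding genes. SLC7A5, a leucine transporter, had 1487 ± 58.5 CPM, ATF4 328 ± 5.47, PSAT1 of serine synthesis 263 ± 3.88 and TRIB3 193 ± 7.97. CHAC1, DDIT3 and ATF3, which rise with acute stress, had 5.79, 4.09 and 4.89 CPM, and DDIT3 is overlapped. ASNS, asparagine synthetase, was low at 0.501 CPM with 44.6% of its exons overlapped. Of hypoxia genes 18 of 19 (94.7%) were on. CA12, a carbonic anhydrase, had 1117 ± 31.2 CPM, EPAS1 and HIF1A, the hypoxia-inducible factor subunits, 732 ± 3.32 and 582 ± 15.7, VEGFA 47.1 ± 0.678 and CA9, a carbonic anhydrase strongly induced by hypoxia, 2.89 ± 0.152; CA9 is overlapped. Of early response and NF-kB genes 21 of 24 were on, with DUSP1 at 144 ± 0.441, NFKB2 at 161 ± 10.3 and NFKBIA at 93.95 ± 3.56 CPM.

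Of 28 interferon-stimulated genes 21 (75%) were on, against 59.6% of all protein-coding genes. Their median was 4.41 CPM against 6.31 over all protein-coding genes. OAS3, which senses double-stranded RNA, had 133, 129 and 124 CPM, IFIT2 52.7, 48.8 and 49.2 and ISG15 29.2, 32.3 and 31.2. IFIT1 and IFIT3 had 44.2 ± 1.26 and 47.4 ± 2.16 CPM, whereas MX1 had 2.09 ± 0.487, IFI27 0.351 ± 0.0871, IFI44L 0.15 ± 0.0504 and BST2 0.251 ± 0.0507. IRF9, IFITM1 and XAF1, which were not on, are overlapped. Of nucleic acid sensing genes 12 of 18 (66.7%) were on, near that share. ADAR had 278 ± 5.95 CPM, MAVS 154 ± 9.996, RIGI 40.9 ± 2.12 and IFIH1 15.3 ± 1.11, while STING1 had 0.75, 0.951 and 1.31. IFNB1, interferon beta, had 29, 19 and 11 fragments, so its libraries lay on both sides of 1 CPM. What the vector adds to these levels was not tested.

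Of antigen presentation genes 19 of 27 (70.4%) were on, against 59.6% of all protein-coding genes. B2M, the light chain of class I molecules, had 219.6 ± 4.18 CPM, HLA-C 40.7 ± 2.97 and HLA-B 8.8 ± 0.30; counts of these polymorphic and related genes are uncertain. The class II genes HLA-DRA, HLA-DRB1, HLA-DPA1 and HLA-DPB1 were at 0, and their regulator CIITA had 0.952 ± 0.253 CPM. CD274, which encodes PD-L1, had 2.001, 2.001 and 2.16 CPM. Of cytokine and chemokine genes 13 of 26 (50%) were on, among them CXCL5, a neutrophil attractant, with 504, 467 and 469 CPM. The chemokine CXCL1 had 41.6 ± 2.02, the cytokine IL18 62.3 ± 3.85, and CCL5, a chemokine for T cells, was measured with 174, 172 and 164 CPM. IL6 stood at 1.09 ± 0.324 CPM, and TNF had 2, 2 and 0 fragments. MIF was near-silent, with 61.95% of its exons overlapped.

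Among signalling and metabolic genes, 28 of 30 TGF-beta ligands, receptors and SMADs (93.3%) were on, against 59.6% of all protein-coding genes. TGFB1 had 214 ± 9.85 CPM, TGFBR2 224 ± 3.004 and SMAD3 259.7 ± 6.01. Of nuclear receptors 23 of 29 (79.3%) were on, with the glucocorticoid receptor gene NR3C1 at 174 ± 5.92 CPM, while ESR1 had 0.234 ± 0.0292 and PGR was at 0. Of 31 xenobiotic and aldehyde enzymes 22 (71.0%) were on, against 59.6% of all protein-coding genes. GSTP1 had 543 ± 21.7, CYP24A1, which breaks down vitamin D, 526 ± 20.1 and CYP1A1 1.22 ± 0.124 CPM, while CYP3A4 had 0, 1 and 0 fragments. All 20 lipid synthesis genes were on. SCD, which desaturates fatty acids, had 2549, 2452 and 2541 CPM, ACLY 803 ± 9.7, FADS1 677 ± 17.1 and FADS2 710.1 ± 8.18.

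Of 18 virus entry genes 14 (77.8%) were on, with the cathepsin genes CTSB and CTSL at 1206 ± 6.32 and 613 ± 24.4 CPM, BSG at 514 ± 24.3 and PVR, the poliovirus receptor, at 188 ± 2.95. TMPRSS2 and TMPRSS4, serine proteases, were at 0. Of therapy surface antigens 9 of 16 (56.2%) were on, near the 59.6% of all protein-coding genes, with CD276 at 74.96 ± 2.79 CPM next to MET, EGFR and DLL3, while CEACAM5 had 1.15, 1.05 and 0.703 CPM.

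Of the 10 long noncoding RNAs with most fragments, MALAT1, a nuclear RNA of splicing speckles, had 413, 443 and 426 CPM, NEAT1, the scaffold of paraspeckles, 189.8, 204 and 194 and NORAD, which binds Pumilio proteins, 211, 184 and 188. The others were FGD5-AS1 (183 CPM), SNHG29 (132), LINC02582 (120.5), OIP5-AS1 (106), SNHG5 (91.7), EBLN3P (86.3) and GAS5 (71.3). UCA1 was at 0, and SFTA1P, an RNA of a surfactant-associated pseudogene, had 3, 0 and 0 fragments. All 13 genes of RNA interference, the pathway hairpins use, were on, against 59.6% of all protein-coding genes. DROSHA had 97.5 ± 0.753 CPM, DICER1 78.7 ± 5.4 and AGO2 83.7 ± 1.14.

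The common biological coefficient of variation, the spread beyond counting noise estimated with edgeR, was 3.20% over the 3 libraries, and 6.47% as the median over genes of DESeq2's dispersion. Over the genes with at least 1000 CPM the median coefficient of variation was 2.81%, against 0.565% from counting alone, and over genes of 10 to 100 CPM 4.30% against 3.89%. Libraries 2 and 3 were nearest to each other: over 14814 genes with at least 20 fragments in the pair their chi-square per degree of freedom was 1.69, against 2.72 for libraries 1 and 2 and 2.65 for libraries 1 and 3. No pair agreed within sampling noise, so none was treated as a library deposited more than once; libraries prepared separately from 1 RNA would also differ by more than that noise. The genes with the largest spread relative to counting were MT-RNR2, FTL, MT-CO1, MT-ND5, MT-CO2, KRT81, MT-ND1, RPL32, MT-ATP6 and AKR1C1. At a given spread this ratio rises with the number of fragments, so it favours abundant genes. Coefficients of variation were 3.98% for MT-RNR2 and 2.37% for MT-CO1, but 11.3% for RPL32 and 7.89% for AKR1C1. On simulated counts with 200 genes given a larger spread, 59% of them ranked among the highest 200 by the ratio. RPL32, a ribosomal protein gene, had 462, 559.7 and 570.5 CPM, lowest in library 1, and KRT81 and AKR1C1 had 2677, 2965 and 2824 and 798, 935 and 864, both highest in library 2.

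Near-silent calls were frequent among genes whose main transcript is mostly shared. Among 13056 protein-coding genes whose main transcript shares no base with another gene's exons, 30.5% were near-silent and 58.5% on. The near-silent share was lower, at 15.2%, 19.1% and 27.9%, where up to 25%, 25% to 50% and 50% to 75% was shared, and higher, at 51.3%, among 277 genes that share 75% to 90%. Among 713 that share more than 90%, 80.8% were near-silent and 5.05% on, with a median of 0 CPM. Where overlap came only from genes on the opposite strand and exceeded 90% of all exon bases, 22 of 23 genes were near-silent, and whether the counting used strand is not stated in the sources. Of the 1267 entries of the lists matched to a gene, 37 were not on and overlapped. How much of a single gene's low level comes with overlap was not tested. EIF4A1, a translation helicase, had 3.05, 3.95 and 3.87 CPM, with 48.6% of its exons overlapped.

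**Figure D5:**
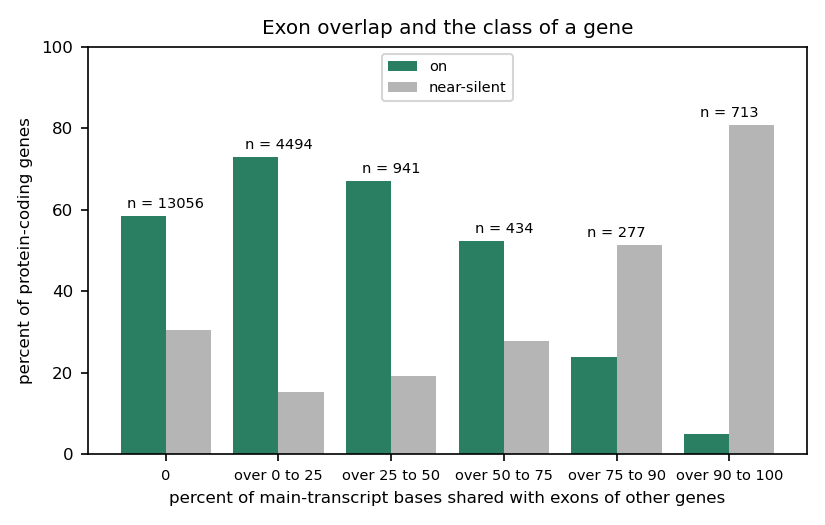
Percent of protein-coding genes that were on or near-silent, by the percent of main-transcript bases shared with exons of other genes in GENCODE 29; the number over each pair of bars counts genes. Near-silent genes make up 30.5% where nothing is shared, 15.2% to 27.9% in the bins up to 75%, and 51.3% and 80.8% in the bins above 75% and 90%.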

How the data were processed

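RNA was measured in A549 cells, with 3 libraries of the group shNT used out of 9, grouped and numbered by the sample titles. The table holds raw fragment counts per gene as the authors deposited it. The tools named in the submitters' processing notes are HTSeq 0.12.4, STAR 2.7.5a, cutadapt 2.10 and FastQC, and the build named there is GRCh38. Neither the annotation release nor the strand setting is known from these sources, which makes counts of antisense, overlapping and near-identical genes uncertain.

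The totals hold only fragments of genes. The counter's other lines made up 10.8% of fragments for ambiguous, 3.79% for unaligned, 2.33% for fragments outside features, 2.11% for several alignments and 0.00733% for low quality. Symbols came from the table of gene names supplied with the reference, and positions, exon lengths and overlaps from GENCODE 29, which holds 58503 of the 60676 identifiers. Genes without a length there held 0.0188% of gene fragments and have no TPM. Levels were compared by description only, so no p-value was computed. The spread was estimated with edgeR (TMM scaling, an intercept only, genes kept by filterByExpr with a minimum count of 10). On simulated data with a spread of 5% over 60676 genes it returned 5.01%. In simulated counts every gene away from the 1 CPM threshold was rightly called on or not on. The near-silent threshold was not simulated.

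The genes and lists were chosen with earlier results of these data known. Of 1268 entries in 58 lists, 1267 matched a gene, 1188 of them distinct. Genes named are the 25 highest by CPM and by TPM, the 10 highest long noncoding RNAs, the 10 with the largest spread relative to counting at 10 CPM or more, the 4 highest by TPM and defining near-silent members of each list, every receptor kinase, RAS pathway, nuclear oncogene, tumour suppressor, 9p21, endoderm factor and type II gene, and LITATS1. Some genes under these rules are counted in their lists but not reported here by name. Others were singled out after their values were seen, for their known roles. The alternatives were thresholds of 0.5 and 2 CPM, a mean of 1 CPM, 1 TPM, TMM or DESeq2 scaling, other denominators, another transcript length, and the omission of each library. The lengths of principal transcripts, the overlap rule of 25% and the search for response elements were added after the data were seen. Tools were R 4.3.3, edgeR 4.0.16, DESeq2 1.42.0, Python 3.11.15, numpy 2.4.6 and pandas 2.3.3.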

Additional observations from a re-analysis of the deposited data

How the results depend on the processing

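The 13041 genes on became 11915 at 2 CPM and 14242 at 0.5 CPM, and 11826 when overlapped genes were left out. No alternative run moved this count by more than 1.5 times. Omitting 1 library gave 13137 to 13167. The share of the 25 highest genes was 14.97% of all fragments rather than 18.5% of gene fragments, and 10.4% with mitochondrially encoded genes left out (18.4% to 18.5% when 1 library was omitted). The mitochondrial share was 9.86% of all fragments (12.05% to 12.25% of gene fragments when 1 library was omitted). The common biological coefficient of variation was 6.47% with DESeq2's dispersion, and 2.22% without library 1, 3.48% without library 2 and 3.71% without library 3. Of 58 list counts, 2 moved by more than 1.5 times, both at 2 CPM: basal and squamous genes to 3 and immune genes to 1. Of the 25 highest genes by TPM, 23 remained with the longest transcript as length and 19 with the principal transcript. No paired analysis was possible because only 1 group was described and the result comes from no test between groups. Depth limits genes at or below 3 fragments in a library.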

Other observations

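Several groups not described above are given as values. Of 15 metallothionein and iron genes 9 (60%) were on, close to the 59.6% of all protein-coding genes. TFRC, the transferrin receptor, had 498, 474 and 477 CPM, FTH1, the ferritin heavy chain, 1272, 1261 and 1338 and SLC40A1, the iron exporter ferroportin, 35.9, 35.8 and 36.8. MT2A, a metal-binding metallothionein, had 141, 139.5 and 152 CPM, while MT1E, MT1G and MT1M were at 0 and MT1X (0.518 CPM) is overlapped. HAMP, the iron hormone hepcidin, was at 0.

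Of 16 quiescence and senescence genes 11 (68.75%) were on, against 59.6% of all protein-coding genes. HMGA1 and HMGA2, chromatin proteins of embryonic and tumour cells, had 635, 675 and 638 and 74.9, 66.9 and 68.9 CPM. IGFBP3 had 118 ± 4.55 CPM, CDKN1B, the p27 inhibitor, 24.4 ± 1.21 and LMNB1, a lamin that is lost in senescent cells, 86.9 ± 4.24, whereas CDKN1C was low (0.284). Of 18 replication-dependent histone genes 8 (44.4%) were on, with H2BC12 at 23.96, 27.5 and 27.3 CPM and H1-2 at 14.96, 16.8 and 18.4. Messages of most of these genes lack a poly(A) tail, and how RNA was selected is not stated in the sources.

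Some nuclear genes with many fragments lie in none of the lists; they were singled out after their values were seen. AKR1B1, aldose reductase, had 2475, 2626 and 2675 CPM, IGFBP4, which binds insulin-like growth factors, 2116, 2202 and 2240.1, ITGB1, an integrin chain, 1929, 1849.5 and 1859.9 and ASPH, an aspartate hydroxylase, 1905, 1777 and 1798. TGM2, tissue transglutaminase, had 1152, 1206 and 1176 CPM.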
